A study of Mus musculus with 5 samples.

Results

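The 10 genes described here encode regulators of the decay of inflammatory messenger RNAs: Arid5a, Zc3h12a, Zfp36, Zfp36l1, Zfp36l2, Rc3h1, Btg1, Btg2, Tob1 and Tob2. They were taken as every non-control probe of a mouse liver expression array whose deposited gene name is on that list, which gave 17 of 56605 probes and 10 of 36870 gene names. The members were chosen by function with their fold differences from vehicle in these same arrays already known, so those differences are given as a description. Of the members, 6 had several probes and 4 had 1. Each was represented by its probe with the highest mean signal, and all 10 of these probes were well above background on all 5 arrays.

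The lifetime of a cytokine or growth factor mRNA is set largely by proteins that bind its 3′ untranslated region. Tristetraprolin (Zfp36) and its relatives Zfp36l1 and Zfp36l2 bind AU-rich elements and recruit the CCR4-NOT deadenylase, which removes the poly(A) tail and opens the mRNA to decapping and digestion. Roquin-1 (Rc3h1) and the endonuclease Regnase-1 (Zc3h12a) recognise stem-loops in the same region, whereas Arid5a binds such stem-loops and protects some of these mRNAs, that of interleukin 6 among them, from Regnase-1. Btg1, Btg2, Tob1 and Tob2 belong to a family of antiproliferative proteins that bind the catalytic CNOT7 and CNOT8 subunits of the deadenylase and act as its adaptors. Several of the genes, Zfp36 and Btg2 among them, are known as early response genes, and the mRNA of Zfp36 is itself bound by the protein it encodes.

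The groups were troglitazone (TGZ) at 300 mg/kg, buthionine sulfoximine (BSO) at 700 mg/kg plus TGZ at 300 mg/kg, rosiglitazone (RGZ), also at 300 mg/kg, BSO at 700 mg/kg plus the same RGZ dose, and vehicle. TGZ and RGZ are thiazolidinediones, ligands of the nuclear receptor PPAR gamma, that share the thiazolidinedione ring and differ in the rest of the molecule, which in TGZ is a vitamin E-like chroman and in RGZ a pyridine. BSO inhibits the first enzyme of glutathione synthesis. The mice were female BALB/c, 6 weeks old, dosed intraperitoneally, and the livers were taken 6 hr after the compound or vehicle. RNA of 6 animals was pooled for each group and hybridised to 1 array, all 5 arrays lay on 1 slide, no group received BSO alone, and all comparisons with vehicle share its 1 array. With no replicate no difference could be tested. The 95% intervals below cover the scanner software's estimate of spot error and leave out the spread between animals, pools and labelling reactions.

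Signals are given as the processed signal divided by the array's 75th percentile (relative signal), and a gene was counted as different from 2-fold on. That percentile was between 141.5 and 208.4 intensity units on the 5 arrays, 51.9% to 55.2% of probes were well above background, and no spot was saturated. The lowest relative signal called well above background was between 0.0499 and 0.0663. All 8 hepatocyte markers searched for were well above background on all 5 arrays. Signals of different probes are not comparable as mRNA levels, so no gene is set against another by signal, and a sum over several genes is weighted by its brightest probes. In whole liver, fewer cells of a type and less mRNA per cell cannot be told apart.

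Stretches of Zfp36 and Btg2 are shown for the elements they hold, and the promoter of Arid5a because that gene had the widest range of signal. The array probes of Zfp36 (mm9 chr7:29161963-29162022, minus strand) and of Btg2 (mm9 chr1:135973828-135973887, minus strand) were the only member probes that held the heptamer TATTTAT, the core of an AU-rich element, which 1.08% of all 56605 probes hold. The 30-base windows read in the direction of the mRNA, with the heptamers in capitals, from probe base 17 to 46 for Zfp36 and from 31 to 60 for Btg2.
Zfp36: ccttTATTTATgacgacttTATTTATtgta
Btg2: ttaaaatgaagagcTATTTATacatgtctt
The Zfp36 window holds 2 heptamers and the Btg2 window 1. Upstream sequence from RefSeq (GRCm38.p6) was matched for 9 of the 10 genes, all but Zfp36l2. The 250 bases before the annotated start are printed for Btg2 (chr1:134079156-134079405, minus strand), Zfp36 (chr7:28379229-28379478, minus strand) and Arid5a (chr1:36307483-36307732, plus strand), with motif matches in capitals.
Btg2: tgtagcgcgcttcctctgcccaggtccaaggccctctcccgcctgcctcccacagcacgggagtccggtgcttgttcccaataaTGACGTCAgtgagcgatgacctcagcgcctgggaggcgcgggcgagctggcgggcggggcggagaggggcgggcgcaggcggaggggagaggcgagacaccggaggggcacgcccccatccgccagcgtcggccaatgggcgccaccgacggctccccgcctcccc
Zfp36: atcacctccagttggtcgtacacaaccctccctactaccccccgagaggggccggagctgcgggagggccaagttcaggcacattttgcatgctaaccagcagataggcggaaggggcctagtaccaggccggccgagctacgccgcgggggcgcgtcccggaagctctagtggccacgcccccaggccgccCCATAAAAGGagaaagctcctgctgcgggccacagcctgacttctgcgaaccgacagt
Arid5a: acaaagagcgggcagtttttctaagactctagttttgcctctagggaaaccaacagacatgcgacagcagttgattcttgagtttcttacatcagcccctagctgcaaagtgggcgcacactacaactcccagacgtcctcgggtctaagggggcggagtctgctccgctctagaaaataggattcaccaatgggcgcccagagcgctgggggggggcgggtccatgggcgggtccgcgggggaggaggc
The motifs searched for, on both strands, were 5: the cAMP response element TGACGTCA, the AP-1 site TGANTCA, the TATA box TATAAA, and by name the CArG box and the NF-kappaB site. The capitals in the Btg2 promoter are a cAMP response element 166 bases before the start, a motif that 1.55% of 32851 promoters held in the same window. Those in the Zfp36 promoter are a CArG box, the element of serum response factor, at 58 bases, which 1.47% of promoters held. The Arid5a window held none of the motifs, nor did those of Zc3h12a and Tob2. Zfp36l1 and Rc3h1 held an AP-1 site at 129 and 133 bases (6.75% of promoters). Zfp36l1, Btg1 and Tob1 held a TATA box (12.4%), and none of the 9 held the NF-kappaB site (7.25%). These matches describe the letters only.

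With TGZ 8 of the 10 genes were at least 2-fold higher than with vehicle and none was lower. Of the 21318 genes with a value, 19.6% passed 2-fold in that comparison, 10.1% upward and 9.48% downward. With BSO plus TGZ 6 were higher and none lower (14.2% of all genes passed, 8.31% upward and 5.9% downward). With RGZ only Arid5a passed 2-fold, upward (3.32% of all genes, 1.65% upward and 1.67% downward). With BSO plus RGZ Arid5a and Btg2 were higher and Btg1 was lower (6.83% of all genes, 3.05% upward and 3.78% downward). The median log2 difference of the 10 genes was 1.68 with TGZ, 1.12 with BSO plus TGZ, 0.18 with RGZ and 0.35 with BSO plus RGZ, beside -0.05 to 0.02 over all genes in the same comparisons. Since the genes were listed with these comparisons known, nothing is read from their share against that of all genes. Scaling the arrays on spike-in RNA moved the median of all genes for TGZ against vehicle to -0.44 and that of the 10 genes to 1.22, with 6 of them then 2-fold higher or more, and turned the sign of the small Tob2 difference.

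**Figure D1:**
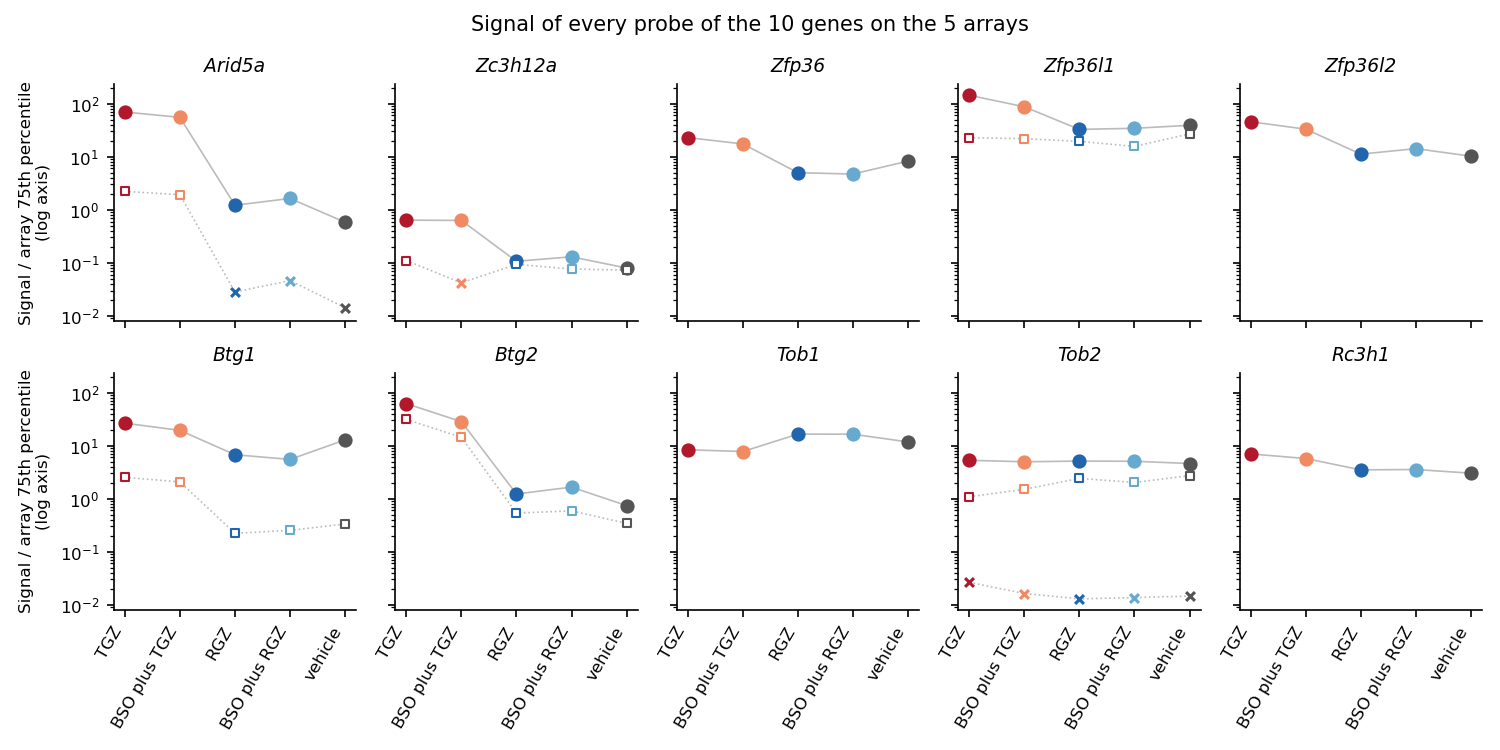
Signal of all 17 probes of the 10 genes in each group, as processed signal over the array's 75th percentile on a log axis, with filled circles for the probe that represents the gene, open squares for its other probes and crosses for signals not well above background. Each point is 1 array of pooled RNA. By the filled circles, Arid5a and Btg2 lie between 0.581 and 1.65 with RGZ, BSO plus RGZ and vehicle and between 28.3 and 69.6 in both TGZ groups, whereas Tob2 lies between 4.60 and 5.29.

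Arid5a had the widest range. The relative signal of its main probe (mm9 chr1:36377312-36377371) was 69.6 with TGZ, 55.1 with BSO plus TGZ, 1.22 with RGZ, 1.63 with BSO plus RGZ and 0.581 with vehicle. Both TGZ groups thus lay far above the other 3, and vehicle was lowest. Against vehicle the TGZ signal of Arid5a was 119.7-fold higher (95% interval 90.4 to 158) and the BSO plus TGZ signal 94.7-fold higher (71.6 to 125). It was also 2.09-fold higher with RGZ (1.58 to 2.77) and 2.81-fold higher with BSO plus RGZ (2.12 to 3.72). Normexp background correction gave smaller log2 differences of Arid5a, 6.21 with TGZ (6.90 as reported), 5.94 with BSO plus TGZ (6.57) and 0.78, below 2-fold, with RGZ. With the probes averaged they were 6.11 with TGZ and 5.83 with BSO plus TGZ. The interval of the ratio between neighbouring groups in this order included 1 only for TGZ and BSO plus TGZ. A second Arid5a probe (mm9 chr1:36376575-36376634) was designed on another transcript record and lies upstream of the main probe on the chromosome. It gave 2.22 with TGZ and 1.92 with BSO plus TGZ, but was not well above background in the other 3 groups. Against vehicle it was at least 39.7-fold higher with TGZ and at least 34.4-fold higher with BSO plus TGZ.

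Zc3h12a, the gene of the endonuclease Regnase-1, was dim in all groups. Its relative signal was 0.637 with TGZ, 0.629 with BSO plus TGZ, 0.107 with RGZ, 0.130 with BSO plus RGZ and 0.0797 with vehicle. The last 3 values lay not far above the lowest signal called well above background on their arrays, and the intervals are wide. Against vehicle it was 7.99-fold higher with TGZ (5.15 to 12.4) and 7.89-fold higher with BSO plus TGZ (5.09 to 12.2). With RGZ the ratio was 1.34 (0.822 to 2.18) and with BSO plus RGZ 1.63 (1.01 to 2.62). The other Zc3h12a probe was designed on a separate transcript record (mm9 chr4:124803611-124803670), the main one on chr4:124795870-124795929. It read 0.110 with TGZ and 0.0728 with vehicle, a ratio of 1.52 (0.894 to 2.57), and was not well above background with BSO plus TGZ. The size of the Zc3h12a difference depended on the processing. Normexp background correction gave 1.22 with TGZ and 1.17 with BSO plus TGZ on the log2 scale, against 3.0 and 2.98 as reported, and averaging the probes gave 1.80 and 1.35.

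Rc3h1, which encodes Roquin-1 (probe at mm9 chr1:162905017-162905076), had relative signals of 6.97 with TGZ, 5.71 with BSO plus TGZ, 3.49 with RGZ, 3.54 with BSO plus RGZ and 3.02 with vehicle. It was 2.31-fold higher with TGZ (1.75 to 3.05) and 1.89-fold higher with BSO plus TGZ (1.43 to 2.49), and the ratios with RGZ and BSO plus RGZ, 1.16 and 1.17, had intervals that included 1. Scaled on spike-in RNA, the TGZ difference was 0.75 on the log2 scale, below 2-fold.

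The tristetraprolin family was higher in both TGZ groups by its main probes, and by these probes only for Zfp36 did the interval of RGZ against vehicle lie below 1. Zfp36 read 22.9 with TGZ, 17.4 with BSO plus TGZ, 4.99 with RGZ, 4.70 with BSO plus RGZ and 8.26 with vehicle. The vehicle value thus lay between the TGZ and the RGZ groups. Zfp36 was 2.77-fold higher with TGZ (2.10 to 3.65) and 2.11-fold higher with BSO plus TGZ (1.60 to 2.78). The ratio to vehicle was 0.604 with RGZ (0.458 to 0.797) and 0.570 with BSO plus RGZ (0.432 to 0.752), short of 2-fold but with intervals below 1. With BSO plus TGZ the difference was 0.88 on the log2 scale under spike-in scaling, again below 2-fold.

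Zfp36l2 (probe at mm9 chr17:84583415-84583474) read 45.6 with TGZ, 33.0 with BSO plus TGZ, 11.2 with RGZ, 14.2 with BSO plus RGZ and 10.2 with vehicle. Here vehicle was the lowest group, next to RGZ. Zfp36l2 was 4.46-fold higher with TGZ (3.38 to 5.89) and 3.23-fold higher with BSO plus TGZ (2.45 to 4.27). The ratio was 1.09 with RGZ (0.830 to 1.44) and 1.39 with BSO plus RGZ (1.05 to 1.84). For Zfp36l1 the probe with the highest signal read 144 with TGZ, 87.1 with BSO plus TGZ, 32.7 with RGZ, 34.3 with BSO plus RGZ and 39.0 with vehicle. By that probe Zfp36l1 was 3.69-fold higher with TGZ (2.80 to 4.87) and 2.23-fold higher with BSO plus TGZ (1.69 to 2.95), and the RGZ, BSO plus RGZ and vehicle values could not be told apart within spot error. Scaled on spike-in RNA, the BSO plus TGZ value was 0.97 on the log2 scale.

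Among the deadenylase adaptors, Btg2 followed the same order of groups as Arid5a. Its relative signal was 61.8 with TGZ, 28.3 with BSO plus TGZ, 1.22 with RGZ, 1.65 with BSO plus RGZ and 0.740 with vehicle. Btg2 was 83.6-fold higher with TGZ (63.2 to 111) and 38.3-fold higher with BSO plus TGZ (28.9 to 50.6). With BSO plus RGZ it was 2.23-fold higher (1.69 to 2.96), and with RGZ the ratio was 1.65 (1.25 to 2.19). No interval of a ratio between neighbouring groups in this order included 1. A second probe of the same mRNA (mm9 chr1:135972094-135972153) gave 31.1 with TGZ, 14.3 with BSO plus TGZ, 0.534 with RGZ, 0.589 with BSO plus RGZ and 0.342 with vehicle. It placed Btg2 91.0-fold higher with TGZ and 41.9-fold higher with BSO plus TGZ, and at 1.72-fold with BSO plus RGZ. Normexp background correction lowered the log2 difference of Btg2 to 5.70 with TGZ (6.39 as reported) and 4.66 with BSO plus TGZ (5.26). The BSO plus RGZ call did not hold after normexp background correction (0.86 on the log2 scale) or with the probes averaged (0.97).

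Btg1 separated the compounds in sign. Its main probe read 26.5 with TGZ, 19.4 with BSO plus TGZ, 6.73 with RGZ, 5.49 with BSO plus RGZ and 12.9 with vehicle, so that vehicle lay in the middle as for Zfp36. Btg1 was 2.06-fold higher with TGZ (1.56 to 2.72), and the ratio with BSO plus TGZ was 1.51 (1.14 to 1.99). With RGZ the ratio was 0.524 (0.397 to 0.691), and with BSO plus RGZ Btg1 was 2.34-fold lower (1.77 to 3.09). The TGZ value stood close to the threshold and was below it under 4 of the 9 alternative settings, with log2 differences of 0.59 to 0.99. With the gene's probes averaged, TGZ was at 1.98, BSO plus TGZ passed 2-fold at 1.61 on the log2 scale and BSO plus RGZ, at -0.81, did not.

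Tob1 (probe at mm9 chr11:94075956-94076015) ran the other way, within 2-fold of vehicle throughout. It read 8.35 with TGZ, 7.74 with BSO plus TGZ, 16.5 with RGZ, 16.4 with BSO plus RGZ and 11.7 with vehicle. The RGZ groups were highest and the TGZ groups lowest. The ratio to vehicle was 0.712 with TGZ (0.539 to 0.939), 0.660 with BSO plus TGZ (0.50 to 0.870), 1.40 with RGZ (1.06 to 1.85) and 1.40 with BSO plus RGZ (1.06 to 1.84). Tob2, its close relative (main probe at mm9 chr15:81680205-81680264), read 5.29 with TGZ, 4.96 with BSO plus TGZ, 5.11 with RGZ, 5.07 with BSO plus RGZ and 4.60 with vehicle. Every interval against vehicle included 1, the one for TGZ running from 0.872 to 1.52, and the sign of the TGZ difference turned to -0.56 when the probes of the gene were averaged. A Tob2 probe on another transcript record (mm9 chr15:81686235-81686294) read 1.09 with TGZ, 1.5 with BSO plus TGZ, 2.41 with RGZ, 2.02 with BSO plus RGZ and 2.72 with vehicle, which is 2.50-fold lower with TGZ (1.89 to 3.31). The remaining Tob2 probe was below background on all arrays.

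**Figure D2:**
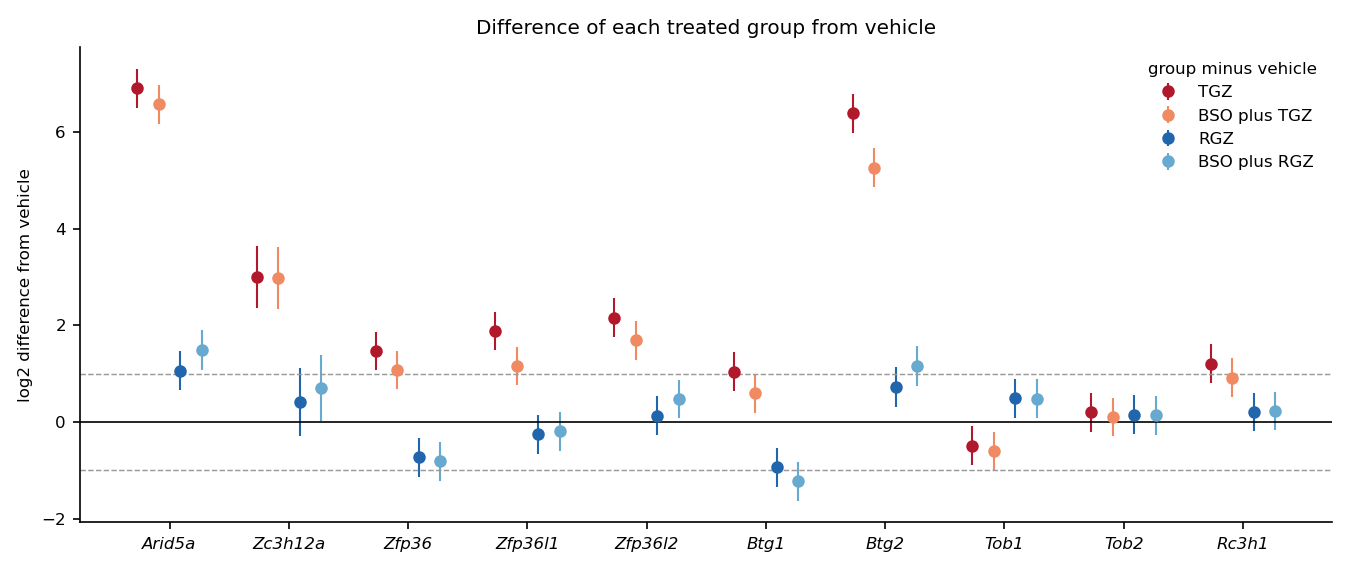
Log2 difference of each treated group from vehicle for the probe that represents each gene, with bars for the 95% interval of spot measurement error and dashed lines at 2-fold. Arid5a and Btg2 reach 6.90 and 6.39 with TGZ. Zfp36, Zfp36l1 and Btg1 lie above 0 in the TGZ groups and below 0 in the RGZ groups, where the bars of Zfp36l1 cross 0. Tob1 shows the opposite signs.

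Probes along the same mRNA did not always give the same difference. The Zfp36l1 probe at transcript position 2868 (mm9 chr12:81208803-81208862) was 1.88 higher with TGZ on the log2 scale, whereas the probe at position 805 (mm9 chr12:81210866-81210925) differed by -0.24. The upstream probe read 22.8 with TGZ, 21.8 with BSO plus TGZ, 19.4 with RGZ, 15.6 with BSO plus RGZ and 26.9 with vehicle, so in it vehicle was highest. The statement that Zfp36l1 was higher with TGZ therefore rests on its downstream probe, and with the probes averaged the difference was 0.82 with TGZ and 0.43 with BSO plus TGZ. For Btg1 the downstream probe at position 4920 (mm9 chr10:96085358-96085417) read 2.52 with TGZ, 2.07 with BSO plus TGZ, 0.223 with RGZ, 0.253 with BSO plus RGZ and 0.334 with vehicle. It was 7.55-fold higher with TGZ (5.65 to 10.1) and 6.21-fold higher with BSO plus TGZ (4.65 to 8.30), more than the probe at position 1627 (mm9 chr10:96082065-96082124) showed. The Btg2 probes at positions 637 and 2371 differed from vehicle by 6.39 and 6.51 with TGZ.

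The gap between downstream and upstream probes was set beside that of 3738 mRNAs with a pair of probes well above background on all arrays. The median gap was -0.02 for TGZ against vehicle, and 5.62% of the mRNAs had probes at least 2-fold apart. The gap of Zfp36l1, 2.12, was exceeded by 0.348% of the mRNAs, that of Btg1, 1.87, by 0.508%, and that of Btg2, 0.12, by 28.4%. With RGZ the gaps were 0.21 for Zfp36l1 and 0.35 for Btg1. The Zfp36l1 and Btg1 gaps thus went the same way, downstream above upstream, and were wider with TGZ than with RGZ. Which transcript forms the probes detect was not tested.

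**Figure D3:**
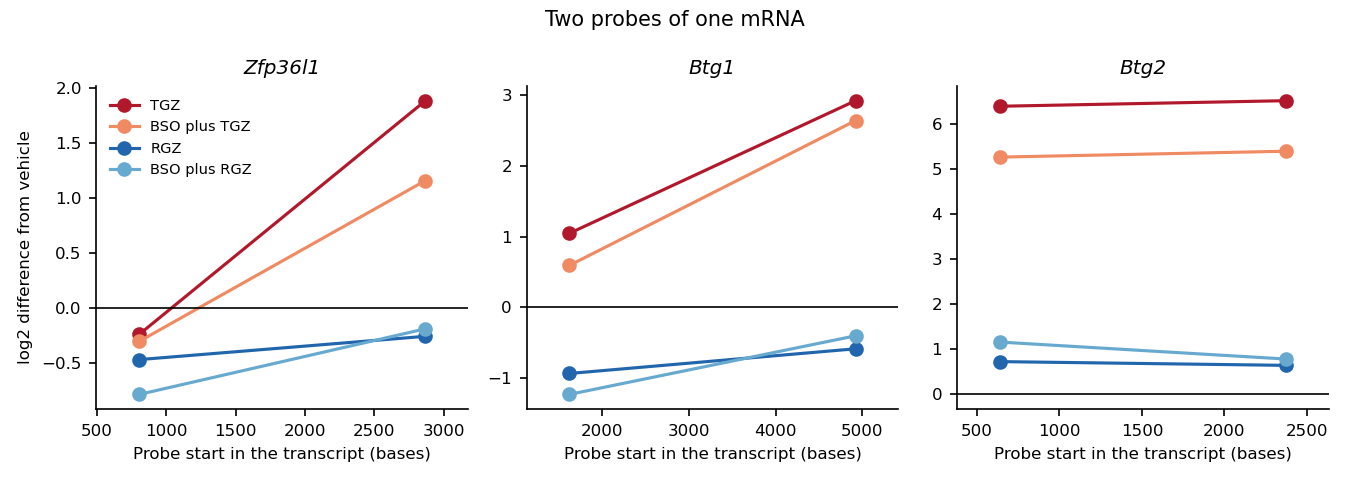
Log2 difference from vehicle of the upstream and the downstream probe of Zfp36l1, Btg1 and Btg2, against the probe's start in the transcript in bases, with a line for each treated group and a separate vertical scale for each gene. The lines of Zfp36l1 and Btg1 climb from -0.24 to 1.88 and from 1.04 to 2.92 with TGZ, and those of Btg2 are nearly level.

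At the same dose and time, 7 of the 10 genes differed by 2-fold or more between TGZ and RGZ. All 7 were higher with TGZ, in a comparison in which 17.6% of 21516 genes passed 2-fold, 9.23% upward and 8.39% downward. Arid5a was 57.2-fold higher (43.3 to 75.5), Btg2 50.5-fold (38.3 to 66.7) and Zc3h12a 5.96-fold (4.18 to 8.52). By their main probes Zfp36, Zfp36l1, Zfp36l2 and Btg1 were 4.58-, 4.41-, 4.08- and 3.94-fold higher. The other Zfp36l1 probe gave a ratio of 1.17 (0.889 to 1.55) and the other Btg1 probe 11.3 (8.40 to 15.2). The other Zc3h12a probe, dim in both groups, gave 1.18 (0.734 to 1.90). Second probes placed Btg2 58.3-fold higher and Arid5a at least 44.4-fold higher. The Zc3h12a difference between TGZ and RGZ, 2.58 on the log2 scale, was 1.23 after normexp background correction and 1.41 with the probes averaged. Averaging also gave 1.18 for Zfp36l1 (2.14 as reported) and 2.74 for Btg1 (1.98). Rc3h1 missed the threshold narrowly at 1.998 (1.51 to 2.64). The ratio for Tob1 was 0.507 (0.384 to 0.669), which passed 2-fold under 4 of the 9 alternative settings. Tob2 gave 1.04 by its main probe, with an interval of 0.785 to 1.37. Its probe on another transcript record was 2.22-fold lower with TGZ than with RGZ (1.68 to 2.93). With BSO in both groups the same 7 genes were higher with BSO plus TGZ than with BSO plus RGZ, and Tob1 was 2.12-fold lower (13.6% of genes passed, 8.31% upward and 5.26% downward). In that comparison Arid5a was 33.8-fold, Btg2 17.1-fold and Zfp36l2 2.32-fold higher. The Zfp36l2 difference there was 0.90 on the log2 scale under spike-in scaling, and those of Zc3h12a and Zfp36l1 were 0.96 and 0.91 with probes averaged.

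BSO was compared within each compound. Btg2 was 2.18-fold lower with BSO plus TGZ than with TGZ (1.66 to 2.88), the only 1 of the 10 past 2-fold. Of 20862 genes 2.06% passed, 0.494% downward and 1.56% upward. The second Btg2 probe gave 2.17-fold lower (1.65 to 2.87). By main probes the other 9 differences were also below 0 on the log2 scale. They ran from -0.72 for Zfp36l1 and -0.47 for Zfp36l2 to -0.02 for Zc3h12a. The intervals of Arid5a, Zc3h12a, Zfp36, Tob1, Tob2 and Rc3h1 included 0. Other probes gave -0.06 for Zfp36l1 (-0.46 to 0.34), -0.21 for Arid5a, -0.28 for Btg1 and 0.46 for Tob2 (0.06 to 0.87). The other Zc3h12a probe, not well above background with BSO plus TGZ, gave -0.88 or lower, with an interval of -2.03 to 0.26. The median of the 10 main probes was -0.37 beside -0.02 over all genes. Under spike-in scaling all genes shifted to a median of 0.24, 7 of the 10 genes remained below 0, their median was -0.10 and Btg2 was at -0.86. With BSO plus RGZ against RGZ none of the 10 passed 2-fold (1.25% of genes did, 0.522% upward and 0.724% downward). By main probes Btg2, Arid5a and Zfp36l2 were then at 0.43, 0.42 and 0.35, and Btg1 at -0.30. The intervals of Zfp36l2 and Btg1 included 0. The second probe gave 0.14 for Btg2 (-0.27 to 0.55) and 0.18 for Btg1 (-0.27 to 0.64). The difference between the BSO effects could not be tested.

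**Figure D4:**
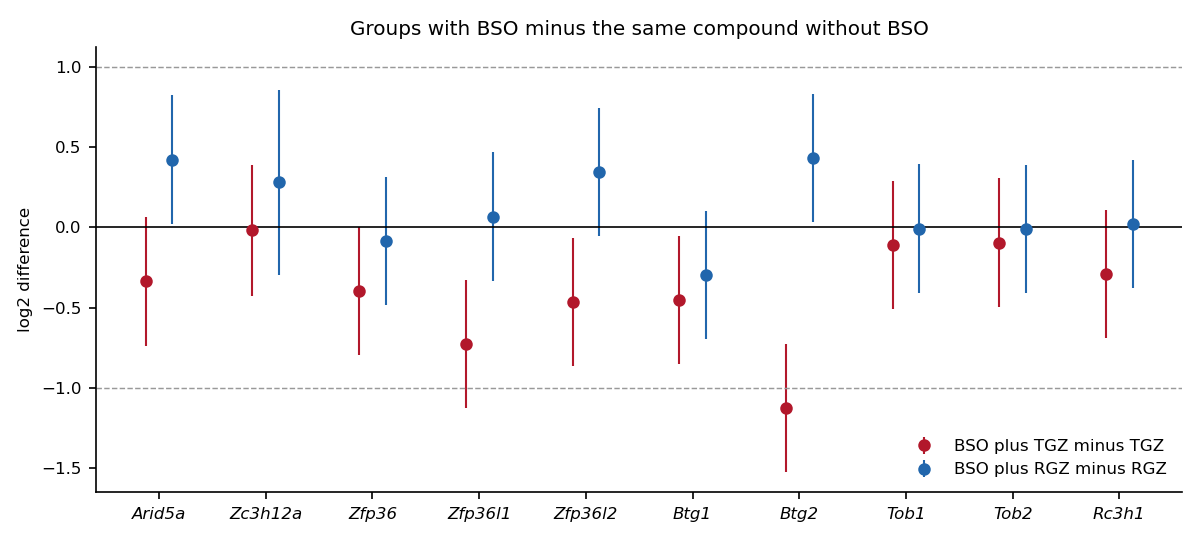
Log2 difference of the group with BSO from the group with the same compound alone, for TGZ and for RGZ, with bars for the 95% interval of spot measurement error and dashed lines at 2-fold. By main probes all 10 values lie below 0 with TGZ, Btg2 lowest at -1.13, and between -0.30 and 0.43 with RGZ. Several of the bars cross 0.

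Genes with the most similar profile were sought for the 7 members whose signal ranged over more than 2 log2 units, by the root mean square distance of the 4 log2 differences from vehicle, which share the vehicle array, among 13913 genes. For Arid5a these were the stress-induced transcription factor gene Atf3 at a distance of 0.40, the pyruvate dehydrogenase kinase gene Pdk4 at 0.49 and Rab30, of a small GTPase, at 0.53. For Btg2 they were the lipid droplet gene Hilpda at 0.40, 3930402G23Rik at 0.42 and the neutrophil gene Retnlg at 0.56. Profiles of smaller range had closer neighbours. Zfp36l2 was nearest to Chd1, a chromatin remodeller, at 0.05, Kif21a at 0.08 and Midn at 0.10, and Btg1 to Ip6k2 at 0.08, Ank3 at 0.12 and Htra1 at 0.15. Zfp36 was nearest to Myadm at 0.09, Ogfrl1 and S1pr3 at 0.15, and Zfp36l1 to Cdkn2d at 0.15, Lpar6 and Krt8 at 0.17. Tmem87b at 0.13, Osbpl10 at 0.14 and Col4a1 at 0.20 were nearest to Zc3h12a. The search used the main probes of the members. The other probes of Zfp36l1 and Zc3h12a ranged over 0.78 and 1.40 log2 units, which is less than 2. Those of Btg1, Btg2 and Arid5a ranged over 3.50, 6.51 and 7.28.

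The machinery that these proteins recruit is the first of several related lists. With TGZ 19.6% of all genes passed 2-fold, 10.1% upward and 9.48% downward, and nothing is read from the share of a list. Of 16 subunits and partners of the deadenylases 1 was lower with TGZ and none passed 2-fold upward, with a median log2 difference of -0.02. That gene was Cnot8, a catalytic subunit that the Btg and Tob proteins bind. It read 2.77 with TGZ, 4.07 with BSO plus TGZ, 10.7 with RGZ, 9.20 with BSO plus RGZ and 10.6 with vehicle, 3.81-fold lower with TGZ and 2.60-fold lower with BSO plus TGZ. The poly(A)-binding protein genes Pabpc4 and Pabpc1 were at ratios of 1.85 and 1.61 with TGZ, and Cnot9 at 0.689. Of 12 genes of decapping and 5′ to 3′ decay, Pnrc1, a decapping coactivator, was 5.56-fold higher with TGZ and 5.21-fold higher with BSO plus TGZ. Patl1 was 2.01-fold higher and Edc3, named after its value was seen, 2.83-fold lower with TGZ, and Dcp1a was at 1.74. The decapping enzyme gene Dcp2 was 2.95-fold higher with RGZ and 3.34-fold higher with BSO plus RGZ, and at 1.27 with TGZ.

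Of 17 measured genes for other proteins that bind AU-rich elements or stem-loops, or belong to the same families, 2 were higher with TGZ and none lower. Btg3, of the same family as Btg1 and Btg2, read 22.6 with TGZ, 16.3 with BSO plus TGZ, 2.62 with RGZ, 4.77 with BSO plus RGZ and 1.43 with vehicle. It was 15.8-fold higher with TGZ, 11.4-fold higher with BSO plus TGZ and 3.33-fold higher with BSO plus RGZ. Zc3h12d, a relative of Zc3h12a near background, was 2.04-fold higher with TGZ, Arid5b was at 1.98 and Zfp36l3 at 1.03. Of 11 genes for kinases, phosphatases and other proteins that act on the members, Mapkapk2, the kinase that phosphorylates tristetraprolin, was higher, 5.65-fold with TGZ and 4.66-fold with BSO plus TGZ, against a ratio of 1.08 with RGZ. Tbk1 was at 1.80, Dusp1 at 1.92 and Ywhaz at 1.67 with TGZ.

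Transcripts known from other cells as targets of the 10 proteins were listed separately. Of 28 listed, 20 were measured with TGZ or vehicle, of which 12 were at least 2-fold higher and 3 lower (median 1.59). Tfrc and Icos were named after their values were seen. Tfrc, the gene of the transferrin receptor, was 3.04-fold lower with TGZ. Icos, of a T cell costimulator, was not well above background with TGZ and 3.08-fold lower by that dim signal. With BSO plus TGZ the count was 11 higher and 2 lower of 20 (median 1.35), with RGZ 4 and none of 19 (0.26) and with BSO plus RGZ 3 and 1 of 18 (0.23). Lcn2, the gene of lipocalin 2, was 89.1-fold higher with TGZ, 68.7-fold with BSO plus TGZ, 28.4-fold with RGZ and 59.2-fold with BSO plus RGZ. The chemokine gene Cxcl1 was 44.3-fold, 35.4-fold and 2.08-fold higher with TGZ, BSO plus TGZ and RGZ, and at 1.16 with BSO plus RGZ. The early response gene Ier3 was 42.5-fold, 26.2-fold and 4.0-fold higher with TGZ, BSO plus TGZ and BSO plus RGZ, and at 1.66 with RGZ. Myc was 11.2-fold, 9.48-fold and 3.43-fold higher with TGZ, BSO plus TGZ and RGZ.

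The cytokine mRNAs best known as targets were named after their values were seen. Tnf read 0.661 with TGZ, 0.671 with BSO plus TGZ, 0.551 with RGZ, 0.486 with BSO plus RGZ and 0.704 with vehicle, within 2-fold of vehicle in every group. Il1b was at 1.54 with TGZ. Il6, which Arid5a is known to stabilise, was dim on all arrays and not well above background with vehicle. It read 0.236 with TGZ, 0.244 with BSO plus TGZ, 0.123 with RGZ and 0.139 with BSO plus RGZ. Against vehicle Il6 was at least 4.22-fold higher with TGZ and at least 4.36-fold with BSO plus TGZ. It was at least 2.20-fold higher with RGZ and at least 2.48-fold with BSO plus RGZ. Il12b, Cxcl3, Csf2, Csf3, Ptgs2, Il2 and Ifng were not well above background on any array. Expression arrays measure the mRNA present and not its rate of decay.

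**Figure D5:**
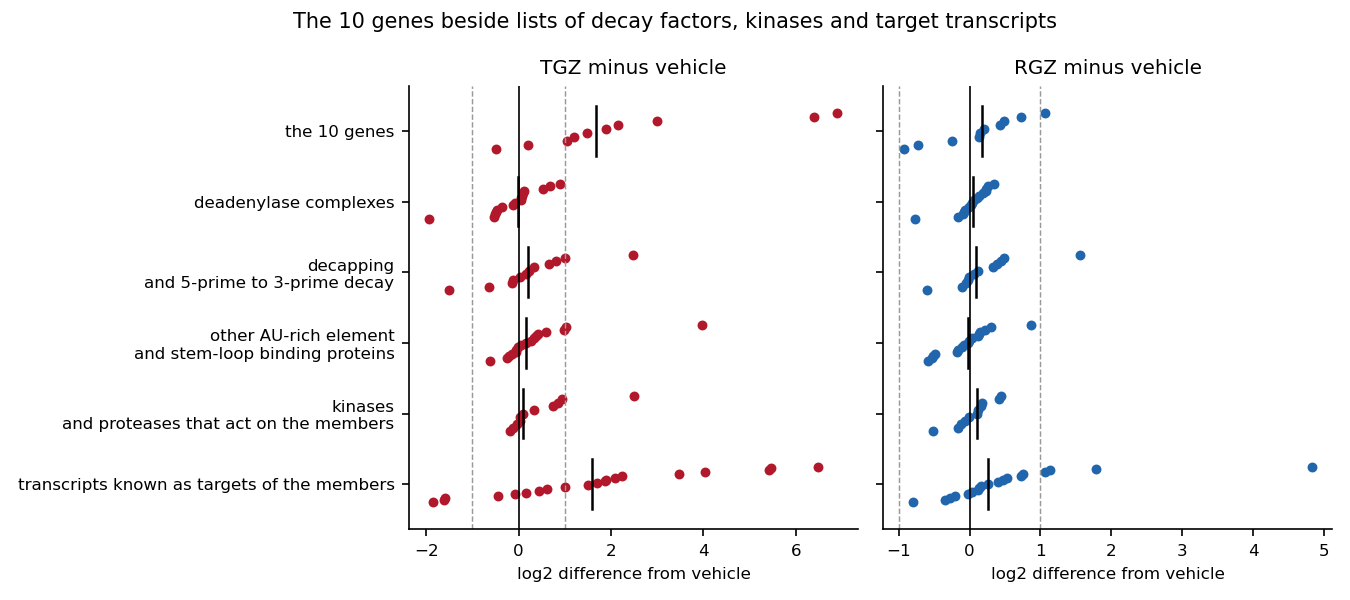
Log2 difference from vehicle of the 10 genes and of the measured genes of 5 related lists, with TGZ on the left and RGZ on the right, where each dot is a gene, the vertical bar is the list's median and dashed lines mark 2-fold. The panels have separate scales. The medians with TGZ are 1.68 for the 10 genes and 1.59 for the target transcripts, and between -0.02 and 0.20 for the other 4 lists.

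Markers of liver cell types differed between the groups as well, and were named after their values were seen. Of 10 neutrophil markers 5 were at least 2-fold higher with TGZ and none was lower, and their summed relative signal was 257 with TGZ, 258 with BSO plus TGZ, 121 with RGZ, 128 with BSO plus RGZ and 113 with vehicle. The Csf3r probe made up 115 of the sum with TGZ and 100.5 of that with vehicle, and the S100a9 probe 104 and 6.20. S100a8 was 18.6-fold, S100a9 16.8-fold and Retnlg 42.3-fold higher with TGZ, and Cxcr2 and Ngp, not well above background with vehicle, were higher by at least 14.8-fold for Cxcr2 and at least 4.23-fold for Ngp. Ly6g read 0.683 with TGZ and 1.11 with vehicle, and Elane, Csf3r, Camp and Mpo were within 2-fold. None of 7 Kupffer cell and macrophage markers passed 2-fold with TGZ, and their sum was 44.6 with TGZ, 59.3 with BSO plus TGZ, 57.2 with RGZ, 51.9 with BSO plus RGZ and 54.3 with vehicle. With TGZ 2 of 8 hepatocyte markers were higher, Tat and Fgb, and their sum was 6883 with TGZ, 5890.2 with BSO plus TGZ, 4781 with RGZ, 4978 with BSO plus RGZ and 4415 with vehicle. Of 6 sinusoidal endothelial markers Lyve1 and Cdh5 were higher and Clec4g and Oit3 lower with TGZ. Sox9 was higher among 3 measured cholangiocyte markers and Slc4a1 among 4 erythroid ones. Lrat was lower among 6 stellate cell markers and Cd79b among 4 B cell markers, and none of 4 T and NK cell markers passed 2-fold. In the RGZ groups S100a8, S100a9 and Retnlg were also higher, S100a8 3.29-fold with RGZ and 4.46-fold with BSO plus RGZ. Marco, a macrophage marker, was 3.43-fold higher with RGZ and 3.59-fold higher with BSO plus RGZ, and Lyve1 2.59-fold and 3.29-fold higher. The cholangiocyte marker Krt19 was 2.97-fold lower with RGZ and 5.55-fold lower with BSO plus RGZ, and the stellate cell marker Col3a1 2.08-fold and 2.50-fold lower. Also past 2-fold were Mpo, higher, and Slc4a1, lower, with RGZ, and with BSO plus RGZ Cxcr2 and Fgb, higher, and Col1a1, lower. The part of these cells in the signals of the 10 genes was not tested.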

How the data were processed

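Liver RNA of 5 groups was measured on Agilent single-colour arrays, 1 pool of 6 animals and 1 array a group. Per the file headers, Agilent Feature Extraction 12.0.3.1 subtracted background from the deposited spot intensities and removed spatial trends, without scaling between arrays. The deposited log2 table equals those signals plus a constant per array for 99% of probes, so it is scaled to a common 75th percentile and not centred per gene. Spots of a probe were averaged, log2 taken and each array's 75th percentile over non-control probes subtracted. A gene is its probe with the highest mean. A gene needed a signal well above background on at least 1 of the arrays compared. A dim side below the array's lowest signal so called took that signal, which makes the difference a bound, written "at least". A dim side above it kept its own value. Intervals are 1.96 times the combined Feature Extraction errors of both spots (median 0.15 per spot on the log2 scale). The call is 2-fold, with no test, since no group has a replicate. The members, the 5 related gene lists and the 9 marker lists were chosen with earlier results of these data known. Named besides the members were up to 4 genes of each related list, those farthest from vehicle, some others chosen after their values were seen, as said beside them, and the 3 nearest profiles of members ranging over 2 log2 units. The steps were tested on simulated data. The 9 alternatives changed background correction (limma 3.58.1, normexp with an offset of 50), scaling, the filter on dim probes, the probe choice and the value source. Probe coordinates are mm9 as deposited, and promoter coordinates are GRCm38.p6 from RefSeq. Positions were not converted between the builds, and exon or untranslated-region annotation of the probes was not used here. The values of some listed genes are not reported here.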

Additional observations from a re-analysis of the deposited data

How the results depend on the processing

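Of 80 differences of the 10 genes, 34 passed 2-fold and 22 of these did so in the same direction under all 9 alternatives. None was reversed past 2-fold. After normexp background correction 0 members passed for RGZ against vehicle, 1 before. With spike-in scaling 0 passed for BSO plus TGZ against TGZ, 1 before. With probes averaged 1 passed for BSO plus RGZ against vehicle, 3 before. Counts over all genes moved more. For TGZ, BSO plus TGZ, RGZ and BSO plus RGZ against vehicle, BSO plus TGZ against TGZ, BSO plus RGZ against RGZ, TGZ against RGZ and BSO plus TGZ against BSO plus RGZ, in that order, they were 4168, 3045, 709, 1448, 429, 265, 3791 and 2899. After normexp they were 2004, 1376, 228, 528, 67, 45, 1783 and 1179, and with no filter on dim probes 6890, 5577, 2814, 3902, 2633, 2481, 6523 and 5673. Among genes well above background on all 5 arrays 444 passed for RGZ against vehicle, 234 for BSO plus TGZ against TGZ and 120 for BSO plus RGZ against RGZ. Spike-in scaling gave 735 for BSO plus TGZ against TGZ. It split the genes into 1201 higher and 4288 lower for TGZ against vehicle (2147 and 2021 as reported), 1392 and 1967 for BSO plus TGZ (1780 and 1265), 459 and 259 for RGZ (353 and 356) and 907 and 577 for BSO plus RGZ (646 and 802). For TGZ against RGZ it gave 965 and 4637 (1985 and 1806), for BSO plus TGZ against BSO plus RGZ 1067 and 2410 (1775 and 1124), and for BSO plus TGZ against TGZ 694 and 41 (326 and 103). Median scaling gave 844 and 622 for BSO plus RGZ against vehicle, 257 and 145 for BSO plus TGZ against TGZ, 154 and 104 for BSO plus RGZ against RGZ (111 and 154 as reported), and 1368 and 1661 for BSO plus TGZ against BSO plus RGZ. Quantile normalization gave 133 and 113 for BSO plus RGZ against RGZ. The cause was not tested. No paired analysis was possible because each group has 1 array. Signal over background limits Zc3h12a, whose values with RGZ, BSO plus RGZ and vehicle lie near the lowest detected signal.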
